A study of Homo sapiens with 8 samples.

Results

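The genes described are 33 genes of basal epithelial adhesion, chosen by name with earlier results of these data known. They were found as 33 gene-level features, 1 for each gene, among the 20219 gene symbols of the expression table. They fall into 7 genes of the hemidesmosome and its anchoring fibrils, 6 laminin chains, 8 integrin subunits outside the hemidesmosome and 12 desmosome genes. Expression was measured on Affymetrix GeneChip arrays in MIV-Luc cells, the luciferase-expressing form of the human breast carcinoma line MCF10CA1a, the metastatic member of the MCF10A progression series. All cells carried a pLKO lentivirus and were puromycin-selected pools, with a scrambled hairpin (shSCR) or 1 hairpin against the decoy receptor IL13Rα2 (shIL13RA2, called knockdown cells here). Each line was mock-treated or given 20 ng/ml interleukin-13 (IL-13) for 16 h, and each of the 4 groups had 2 arrays of biological replicates, 8 in all. With 1 hairpin per line, effects of the receptor's loss and of the particular hairpin or pool cannot be told apart. The arrays of a group are called A and B in the order of their columns, and all values are the deposited log2 expression values.

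Hemidesmosomes rivet basal epithelial cells to the basement membrane. In them the integrin α6β4 (ITGA6, ITGB4), collagen XVII (COL17A1) and the tetraspanin CD151 span the membrane, the plakins plectin (PLEC) and dystonin (DST) tie them to keratin filaments inside the cell, laminin-332 lies outside, and collagen VII (COL7A1) forms the anchoring fibrils beneath. Other integrins, which bind laminins, collagens and fibronectin, link the matrix to actin through focal adhesions. Desmosomes join neighboring cells through the cadherins desmoglein (DSG) and desmocollin (DSC), which plakoglobin (JUP), plakophilins (PKP) and desmoplakin (DSP) couple to keratin.

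Across all arrays, the median log2 value lay between 5.02 and 5.06, Pearson's r between arrays of one group was 0.992 to 0.993, and a feature's SD within its group had a median of 0.102. The feature of IL13RA2, the hairpin's target, read 8.07 and 8.09 in mock-treated shSCR cells, 9.36 and 9.33 in IL-13-treated shSCR cells, 6.52 and 6.34 in mock-treated knockdown cells and 8.23 and 8.15 in IL-13-treated knockdown cells. The target was thus lower in the knockdown cells at each treatment, but in IL-13-treated knockdown cells it stood at the level of mock-treated shSCR cells. The basal keratin KRT5 read 9.46 to 9.98 on all arrays, and 31 of the 33 adhesion genes lay above the dimmest 30% of features (a mean of 4.01 or less), DSG1 and DSC1 being the exceptions. Levels of different genes on an array are not comparable with each other, so each gene is compared with itself.

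Promoter windows, the 250 bases before an annotated transcription start, are shown for 5 of the genes described below. They are from RefSeq on assembly GRCh38.p14, and each is written 5′ to 3′ on the gene's own strand. They were searched on both strands for a STAT6-type motif (TTC and GAA with 4 bases of any kind between them), a general STAT-type motif (TTCNNNGAA, a shorter spacing) and an AP-1-type motif (TGANTCA), and matches are in capitals. DST is shown because it was the gene that passed the test; this window, on the minus strand at chr6:56642890-56643139, is 1 of its 3 windows and holds a STAT6-type match, as does that of LAMB3 (minus strand, chr1:209651375-209651624, 1 of 3 windows), which also holds an AP-1-type match. The windows of DST and LAMB3 that are not shown hold none of the 3 motifs. LAMA3, the other laminin-332 chain in the list (plus strand, chr18:23872770-23873019), holds a pair of AP-1-type matches. ITGA5 (minus strand, chr12:54419267-54419516) and DSC3 (minus strand, chr18:31042743-31042992) are shown as an integrin that was lower and a cadherin that was higher in the knockdown cells, and hold none of the 3 motifs.
DST: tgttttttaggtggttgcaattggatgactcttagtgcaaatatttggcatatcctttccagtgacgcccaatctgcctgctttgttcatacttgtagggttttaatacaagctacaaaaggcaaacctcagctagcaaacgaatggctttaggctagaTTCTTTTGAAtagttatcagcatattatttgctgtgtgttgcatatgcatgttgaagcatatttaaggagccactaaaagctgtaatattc
LAMA3: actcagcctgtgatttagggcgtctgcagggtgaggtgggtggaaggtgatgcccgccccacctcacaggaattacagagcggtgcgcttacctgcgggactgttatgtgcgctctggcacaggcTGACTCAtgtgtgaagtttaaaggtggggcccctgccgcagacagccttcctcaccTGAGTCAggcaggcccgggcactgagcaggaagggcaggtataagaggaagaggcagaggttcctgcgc
LAMB3: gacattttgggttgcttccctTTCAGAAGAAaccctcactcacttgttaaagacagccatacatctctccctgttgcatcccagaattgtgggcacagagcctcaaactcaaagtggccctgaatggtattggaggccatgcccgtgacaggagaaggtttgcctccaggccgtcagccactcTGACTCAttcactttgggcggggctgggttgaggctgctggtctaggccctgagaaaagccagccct
ITGA5: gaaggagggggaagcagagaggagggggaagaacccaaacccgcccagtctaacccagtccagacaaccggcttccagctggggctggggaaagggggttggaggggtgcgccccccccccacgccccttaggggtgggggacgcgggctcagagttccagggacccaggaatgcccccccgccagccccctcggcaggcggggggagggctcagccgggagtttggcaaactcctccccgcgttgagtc
DSC3: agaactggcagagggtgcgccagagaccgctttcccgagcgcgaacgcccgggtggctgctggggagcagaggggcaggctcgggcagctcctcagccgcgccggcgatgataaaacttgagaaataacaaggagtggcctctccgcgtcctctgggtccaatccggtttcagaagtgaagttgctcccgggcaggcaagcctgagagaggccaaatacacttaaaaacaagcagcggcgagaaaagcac
A window was found for 27 of the 33 genes (38 windows), and ITGA3 was among those without one. The STAT6-type motif occurred in 4 of the 38 windows (DST, ITGAV, ITGB6 and LAMB3) against 5.38% of all 35116 windows, the STAT-type motif in 3 (COL7A1, DSC2 and LAMB2) against 6.57%, and the AP-1-type motif in 3 (LAMA3, LAMB3 and PERP) against 6.57%. A match is a description of the letters and not a bound site, and each of the 33 genes has 1 value per array, so transcripts of DST or LAMA3 that begin at different starts were not separated.

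The first question was how the cells with the hairpin against IL13Rα2 differed from shSCR cells. Of the 33 genes, 1 passed the test when the 4 knockdown arrays were set against the 4 shSCR arrays over both treatments (limma, Benjamini-Hochberg adjusted p under 0.05 over all 29141 features). It was DST, the plakin of the inner hemidesmosomal plaque, and it was higher; over all features 0.446% passed the same test. None passed with a fold change above 2 as well, against 0.0755% of all features. At an unadjusted p under 0.05 there were 11 of the 33 genes (33.3%) against 11.3% of all features. With the dimmest 30% of features left out, the same 11 genes were at that level, against 14.7% of the features kept. The 4 higher ones (5.31% of all features) were DST, the desmocollins DSC2 and DSC3 and the integrin ITGB6, and the 7 lower ones (6.03% of all features) were the laminin chains LAMA3, LAMB1 and LAMB3 and the integrins ITGA2, ITGA3, ITGA5 and ITGB8. All 4 arrays of one line lay beyond all 4 of the other for 9 genes (27.3%) against 7.13% of all features. The median log2 difference was -0.06 over the 33 genes, 12 above and 21 below 0, and -0.01 over all features. Because the list was chosen with earlier results of these data known, these shares are a description and not a test of it.

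**Figure D1:**
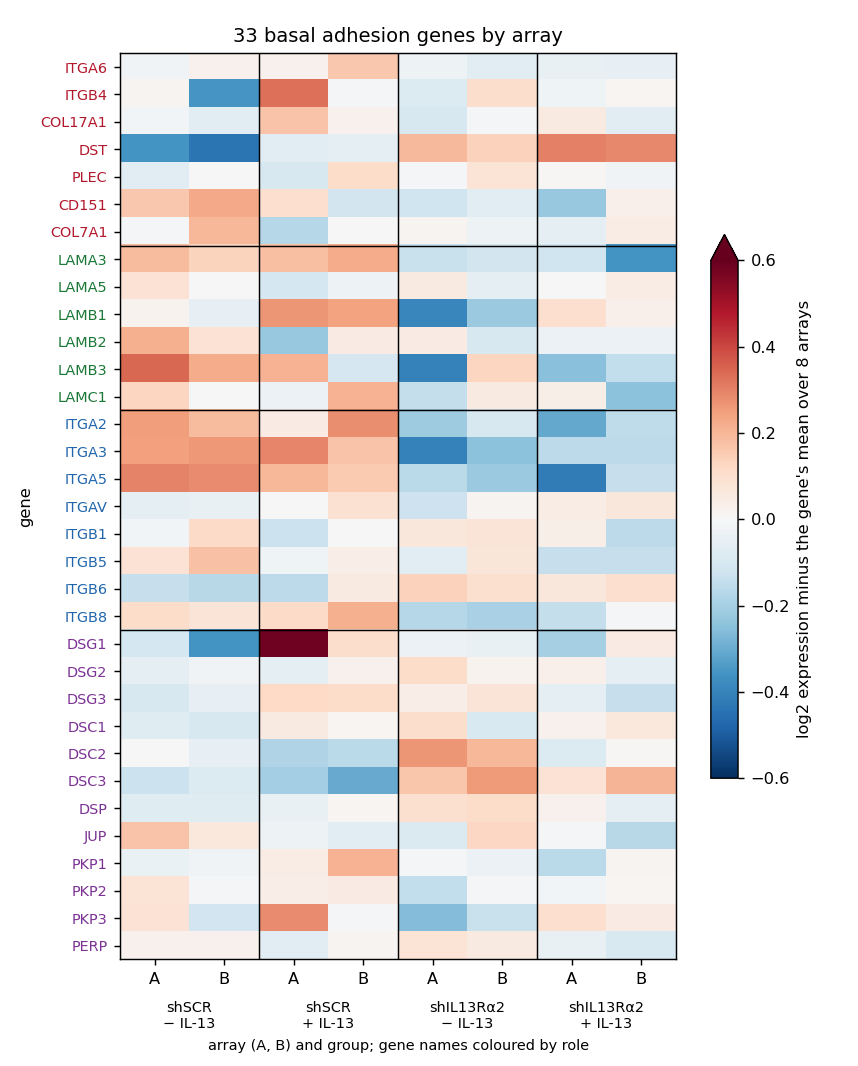
Heat map of the 33 genes (rows, by role) on the 8 arrays (columns, by group), colored by the log2 value minus the gene's mean over all arrays. DST goes from its lowest values in mock-treated shSCR cells (9.15 and 9.23) to its highest in IL-13-treated knockdown cells (9.88 and 9.89), while ITGA3, ITGA5, ITGA2 and LAMA3 are lower on the 4 knockdown arrays than on the 4 shSCR arrays.

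DST encodes dystonin, whose epithelial form is the bullous pemphigoid antigen that attaches keratin filaments to the hemidesmosome. It read 9.23 and 9.15 in mock-treated shSCR cells, 9.53 and 9.53 in IL-13-treated shSCR cells, 9.78 and 9.73 in mock-treated knockdown cells, and 9.89 and 9.88 in IL-13-treated knockdown cells. The 4 groups did not overlap, and every knockdown array was above every shSCR array. The share of all features with all 4 groups apart was not computed. The pooled SD within groups was 0.034. The limma test used a larger spread, drawn toward that of other features, with a standard error of 0.0997 for a difference between groups of 2 arrays. Over both treatments DST was 1.38-fold higher in the knockdown cells (log2 difference 0.46, 95% confidence interval 0.30 to 0.62, adjusted p = 0.0459, limma). The difference was 0.57 without IL-13 (adjusted p = 0.169, limma) and 0.36 with IL-13 (adjusted p = 0.474), and neither passed. Each compares 4 arrays, with the spread estimated over all 8. The call stood close to the threshold. With any 1 of the 8 arrays left out the difference was 0.44 to 0.48. The adjusted p was 0.0569 (limma) with the arrays shifted to one median. It was 0.232 in a one-way analysis of variance, the kind of test named in the methods. That test set the 4 knockdown arrays against the 4 shSCR arrays, so the IL-13 difference stayed in its error. The study's own comparisons were between single groups.

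The other hemidesmosome and anchoring genes did not pass. ITGA6, the laminin-binding α chain of the hemidesmosomal integrin, read 12.08 and 12.13 in mock-treated shSCR cells, 12.13 and 12.26 with IL-13, 12.07 and 12.03 in mock-treated knockdown cells and 12.06 and 12.05 with IL-13. Its knockdown arrays were all below its shSCR arrays, by a mean of only -0.10 on the log2 scale (95% interval -0.27 to 0.07). Its partner ITGB4 ranged from 5.82 to 6.50 with overlapping groups and differed by 0.01 (-0.26 to 0.28), a value that ran from -0.09 to 0.10 over the alternatives tried. CD151, which associates with laminin-binding integrins, ran from 6.38 to 6.72 in shSCR cells and from 6.27 to 6.53 in knockdown cells, a difference of -0.19 (-0.40 to 0.02, adjusted p = 0.498) with overlapping arrays. COL17A1, PLEC and COL7A1 differed by -0.05, 0.03 and -0.01. DST was therefore the single gene of these 7 at an unadjusted p under 0.05, and the median of the 7 was -0.01.

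Among the laminin chains, 5 of 6 had differences below 0 (median -0.20), and none passed the adjusted test. LAMA3, the α chain of laminin-332, read 7.75 and 7.70 in mock-treated and 7.74 and 7.78 in IL-13-treated shSCR cells, against 7.43 and 7.45 in mock-treated and 7.44 and 7.20 in IL-13-treated knockdown cells. The 4 knockdown arrays were all below the 4 shSCR arrays, by -0.36 (95% interval -0.55 to -0.17, adjusted p = 0.153). LAMB3, its β chain, was noisier. It ran from 6.21 to 6.66 in shSCR cells and from 5.90 to 6.44 in knockdown cells, which overlap, for a difference of -0.34 (-0.65 to -0.03, adjusted p = 0.400). LAMB1, a β chain of the widely expressed laminins, differed by -0.24 (-0.42 to -0.06, adjusted p = 0.316), while LAMA5, LAMB2 and LAMC1 ranged from -0.15 to 0.02.

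The integrins outside the hemidesmosome held the lower values that came nearest to the threshold. ITGA3, the α chain of the laminin receptor α3β1, read 6.88 and 6.89 in mock-treated shSCR cells, 6.93 and 6.80 with IL-13, 6.23 and 6.39 in mock-treated knockdown cells and 6.48 and 6.48 with IL-13. The lines did not overlap, and the knockdown cells were lower by a log2 difference of -0.48 (95% interval -0.66 to -0.31, adjusted p = 0.0532). ITGA5, the α chain of the fibronectin receptor, read 6.78 and 6.77 in mock-treated shSCR cells, 6.68 and 6.64 with IL-13, 6.32 and 6.26 in mock-treated knockdown cells and 6.06 and 6.35 with IL-13. Its lines did not overlap either, with a difference of -0.47 (-0.67 to -0.27, adjusted p = 0.0897). ITGA2, ITGB8 and ITGB6 are given here after their values were seen. ITGA2, the collagen-binding α chain, ran from 9.49 to 9.72 in shSCR cells and from 9.13 to 9.34 in knockdown cells (difference -0.38, -0.59 to -0.18). ITGB8, which pairs with ITGAV, ran from 9.24 to 9.37 in shSCR cells and from 8.96 to 9.15 in knockdown cells (-0.26, -0.43 to -0.08). In ITGB6, the epithelial partner of ITGAV that activates latent TGF-β, the knockdown arrays were instead the higher ones, 11.25 to 11.32 against 11.01 to 11.23 (0.20, 0.02 to 0.39). In these 5 integrins the 4 arrays of one line lay beyond those of the other, whereas ITGAV (0.00), ITGB1 (0.01), the common β1 partner of ITGA2, ITGA3 and ITGA5, and ITGB5 (-0.14) had overlapping arrays. The median of the 8 was -0.20.

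Of the 12 desmosome genes, 2 desmocollins were at an unadjusted p under 0.05 and none passed the adjusted test. DSC3, a desmosomal cadherin of basal layers, read 8.54 and 8.59 in mock-treated shSCR cells, 8.47 and 8.37 with IL-13, 8.84 and 8.93 in mock-treated knockdown cells and 8.76 and 8.88 with IL-13. All knockdown arrays were above all shSCR arrays, by 0.36 (95% interval 0.18 to 0.53, adjusted p = 0.132). DSC2, the most widespread desmocollin, read 11.04 and 10.98, then 10.85 and 10.87 in shSCR cells without and with IL-13, and 11.30 and 11.23, then 10.95 and 11.04 in knockdown cells. Here the lines overlapped, and the difference was 0.20 (0.03 to 0.36, adjusted p = 0.374). The other 10 genes ranged from -0.12 (PKP3) to 0.09 (DSP), and PERP, a tetraspan desmosomal protein, differed by 0.00. The desmosomal cadherins, which lie beside each other on chromosome 18, did not move as 1 block: DSG2 and DSG3 differed by 0.05 and -0.04.

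**Figure D2:**
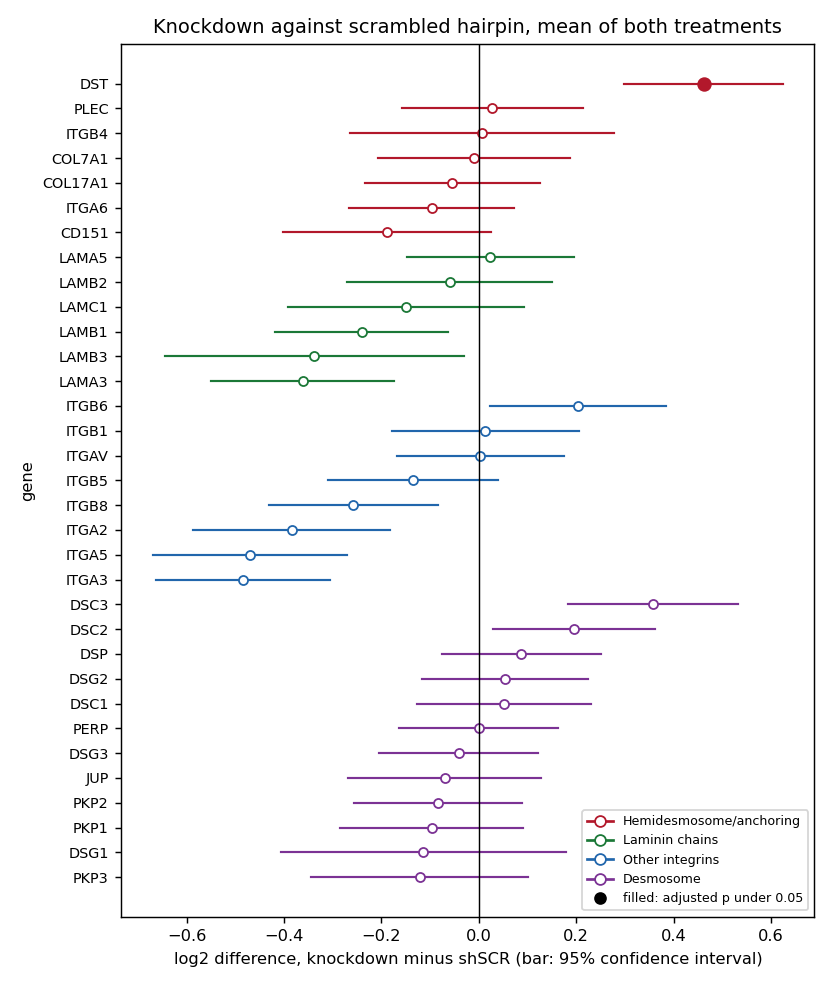
Log2 difference between knockdown and shSCR cells over both treatments for each of the 33 genes, with its 95% confidence interval, grouped and colored by role. DST (0.46) is the filled point, which marks an adjusted p under 0.05, and ITGA3 (-0.48) and ITGA5 (-0.47) lie furthest below 0.

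The knockdown was measured in mock-treated and in IL-13-treated cells on separate arrays, so the 2 differences share no array. Their p-values do share the estimate of each gene's spread, which was fitted over all 8 arrays. No gene of the 33 passed in either comparison, against 0.0686% of all features without IL-13 and 0.0549% with it. At an unadjusted p under 0.05 there were 10 of 33 genes without IL-13 (30.3% against 9.51% of all features) and 7 with it (21.2% against 7.07%). DST and DSC3 on the higher side and ITGA2, ITGA3, ITGA5 and LAMA3 on the lower side were in both. Both differences had the same sign for 23 of the 33 genes (69.7%) and for 57.4% of all features. Across the 33 genes Pearson's r between the 2 differences was 0.70 and Spearman's rho 0.60, and across all features they were 0.24 and 0.21, as a description only, since genes are not independent replicates and the 2 hairpin lines are shared. In the 8 integrins outside the hemidesmosome r was 0.97, and 7 had the same sign. The other groups were lower. In the 7 hemidesmosome and anchoring genes r was 0.68 but rho 0.07, and 4 had the same sign. In the 6 laminin chains r was 0.64, and 4 had the same sign. In the 12 desmosome genes r was 0.32, and 8 had the same sign. ITGA3 differed by -0.58 without and -0.39 with IL-13, ITGA5 by -0.48 and -0.46, LAMA3 by -0.28 and -0.44 and DSC3 by 0.32 and 0.40.

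**Figure D3:**
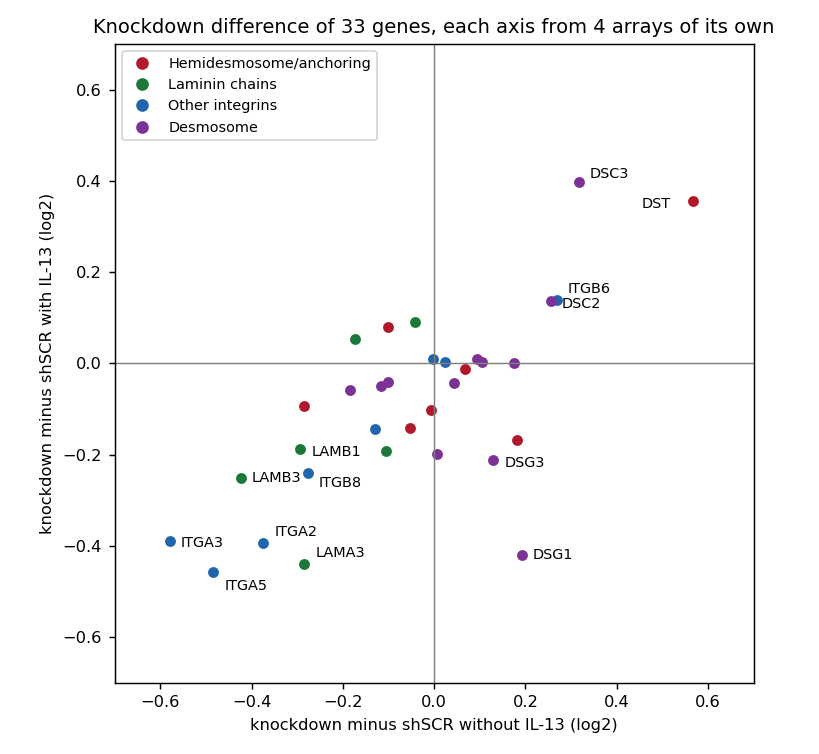
Each point is 1 of the 33 genes, with its log2 difference between knockdown and shSCR cells without IL-13 on the x axis and with IL-13 on the y axis. DST (0.57 and 0.36) and DSC3 (0.32 and 0.40) lie at the upper right and ITGA3, ITGA5, ITGA2 and LAMA3 at the lower left.

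Markers of other cell types were measured beside these differences. The 8 luminal epithelial markers (11 features, 10 of them above the dimmest 30%) had a summed level of 13.05 to 13.14 on the log2 scale in shSCR cells and 12.84 to 13.00 in knockdown cells, so it was lower on every knockdown array. In that list, 1 of 2 features of KRT18, a simple-epithelial keratin, passed for the knockdown (log2 difference -0.60, adjusted p = 0.0454) and the other did not (-0.30, adjusted p = 0.327). Single markers of the list went both ways: GATA3, a luminal transcription factor, ran from 7.79 to 7.999 in shSCR cells and from 7.99 to 8.32 in knockdown cells (0.30, adjusted p = 0.221), and KRT19 differed by 0.14 (adjusted p = 0.659). GATA3 and KRT19 are named here after their values were seen. The 5 leukocyte markers summed to 7.73 to 8.10 in shSCR cells and 7.61 to 7.76 in knockdown cells, with PTPRC, the pan-leukocyte marker, among the dimmest features, and the 6 fibroblast markers to 7.35 to 7.48 over all arrays, with DCN and LUM among the dimmest. The part of these markers in the adhesion results was not tested. All samples were cultures of 1 cell line, so the leukocyte and fibroblast sums are not fractions of such cells. Within a bulk pool, fewer cells of a kind and less RNA per cell cannot be told apart. TP63, the basal epithelial transcription factor p63, read 5.06 and 4.87 in mock-treated and 6.11 and 6.0 in IL-13-treated shSCR cells, and 6.11 and 6.20 in mock-treated and 6.98 and 6.50 in IL-13-treated knockdown cells. It was higher in the knockdown cells by 0.94 over both treatments (adjusted p = 0.0225). Its log2 difference between IL-13-treated and mock-treated arrays, over both lines, was 0.84 (adjusted p = 0.0463). The other basal epithelial markers did not pass the adjusted test in either comparison. For the knockdown, KRT5 differed by 0.01, KRT14 by 0.12 and the cadherin CDH3 by -0.20. The features of KRT17 differed by -0.14, -0.11 and 0.06. With IL-13, KRT5 differed by -0.29, KRT14 by -0.18 and CDH3 by 0.08. The features of KRT17 then differed by -0.13, -0.11 and -0.11. The part of TP63 in the DST values was not tested.

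The next question was what IL-13 did to the adhesion genes. Over both lines, 4 IL-13-treated against 4 mock-treated arrays, none of the 33 passed, against 0.233% of all features. At an unadjusted p under 0.05 there were 3 (LAMB1 and DST higher, DSC2 lower), 9.09% against 8.73% of all features, and the 4 arrays of one treatment lay beyond the other's for 2 genes (LAMB1 higher, PERP lower), 6.06% against 4.78%. Both shares were near those of all features. In shSCR cells alone none passed (0.0618% of all features did) and 3 were at an unadjusted p under 0.05 (9.09% against 6.79%), DSG1, DST and LAMB1, all higher. In knockdown cells alone none passed (0.0618% of all features did) and 2 were at that level (6.06% against 6.93%), LAMB1 higher and DSC2 lower.

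LAMB1 had the smallest p of the 33 for IL-13. It read 7.44 and 7.37 in mock-treated and 7.68 and 7.66 in IL-13-treated shSCR cells, and 7.03 and 7.20 in mock-treated and 7.52 and 7.45 in IL-13-treated knockdown cells. All IL-13-treated arrays were above all mock-treated arrays, by 0.32 (95% interval 0.14 to 0.50, adjusted p = 0.271). DST was 0.34 higher with IL-13 in shSCR cells and 0.13 in knockdown cells (0.23 over both, 0.07 to 0.40, adjusted p = 0.396, limma). Its treated arrays were above the mock-treated ones within each line. Such separation of 2 arrays from 2 is common: 36.7% of all features had it in shSCR cells and 37.4% in knockdown cells. DSC2 was lower by -0.15 and -0.27 in the 2 lines (-0.21 over both, -0.38 to -0.04, adjusted p = 0.463). The plakophilin PKP3 differed by 0.21 (-0.01 to 0.43), ITGB4 by 0.16 (-0.12 to 0.43), LAMB2 by -0.13 (-0.34 to 0.09), ITGB5 by -0.13 (-0.31 to 0.04) and ITGB1 by -0.12 (-0.32 to 0.07), each with overlapping arrays. The median was -0.02 over the 33 genes and 0.01 over all features.

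**Figure D4:**
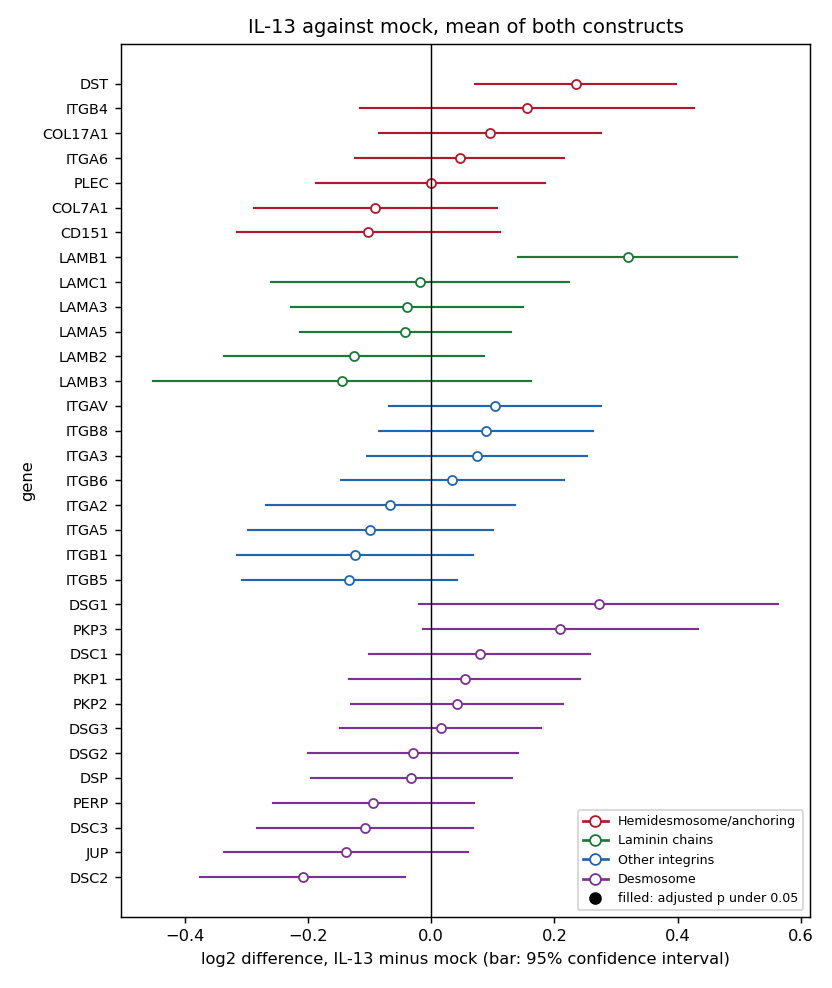
Log2 difference between IL-13-treated and mock-treated cells over both lines for each of the 33 genes, with its 95% confidence interval, grouped and colored by role. No point is filled, since none had an adjusted p under 0.05; LAMB1 (0.32) and DST (0.23) have intervals above 0 and DSC2 (-0.21) one below 0.

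The study also set IL-13-treated knockdown cells against mock-treated shSCR cells, the groups that differ in both hairpin and treatment. DST was again the 1 gene of 33 that passed, where 0.285% of all features did. It was 1.62-fold higher (log2 difference 0.70, 95% interval 0.47 to 0.93, adjusted p = 0.0455, limma), from 9.23 and 9.15 to 9.89 and 9.88. The call was lost with any 1 of the 8 arrays left out (0.66 to 0.74, adjusted p 0.0948 to 0.270), with the 4 arrays of these groups fitted alone (adjusted p = 0.231), with the arrays shifted to one median (adjusted p = 0.0539) and in the methods' one-way analysis of variance (adjusted p = 0.511). At an unadjusted p under 0.05 there were 8 of 33 genes (24.2% against 9.56% of all features), DST and DSC3 higher and ITGA2, ITGA3, ITGA5, ITGB5, LAMA3 and LAMB3 lower. LAMA3 differed by -0.40 and LAMB3 by -0.48, neither of which passed. ITGA5 differed by -0.57, ITGA2 by -0.45 and ITGA3 by -0.41. LAMB1, which was lower with the hairpin and higher with IL-13, differed by 0.08. This comparison and the preceding ones share arrays and are not independent.

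**Figure D5:**
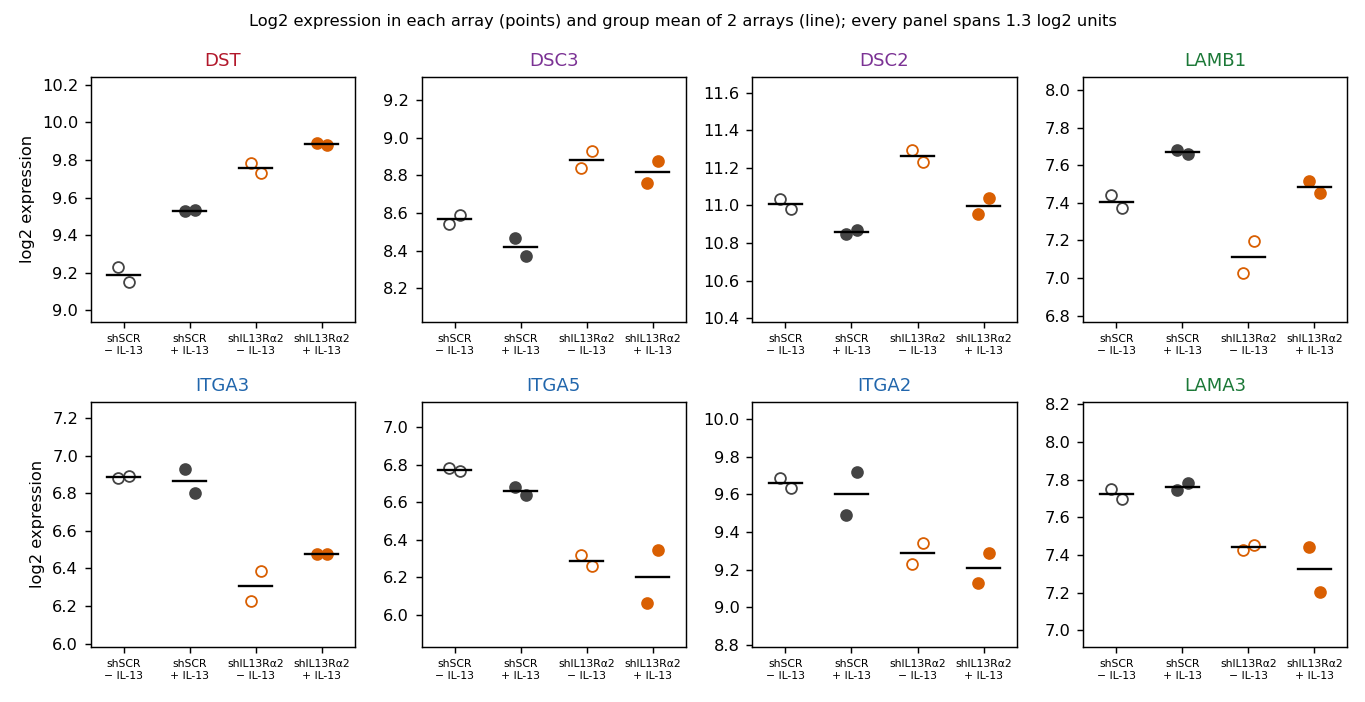
Log2 expression of selected genes in the 4 groups, each point 1 array and each line the mean of its group of 2. DST steps up from 9.19 in mock-treated shSCR cells through 9.53 and 9.76 to 9.89 in IL-13-treated knockdown cells without overlap of the groups. Between 2 groups of 2 arrays, 36.4% to 41.2% of all features did not overlap. The share with all 4 groups apart was not computed.

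Whether the effect of the hairpin differed between treatments was asked with the interaction term. None of the 33 genes, and 0% of all features, passed, and 2 of the 33 (6.06%) were at an unadjusted p under 0.05 against 4.47% of all features. These were DSG1 and DSG3, neighboring desmoglein genes. DST had an interaction of -0.21 (adjusted p = 0.989), so its smaller difference in the presence of IL-13 was within the error. With 2 arrays a group, interactions have wide intervals, as in ITGB4 (-0.35, -0.89 to 0.19).

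Neighboring parts of the adhesion machinery were read from lists of other genes. Of 16 further integrin and laminin genes, 15 were on the array, and 0 passed for the knockdown over both treatments or for IL-13 over both lines. At an unadjusted p under 0.05 there were 2 and 5 of these 15, against 11.3% and 8.73% of all features. Of 13 basement membrane and matrix genes, TNC passed in both. TNC encodes tenascin-C, a matrix glycoprotein of wounds and tumor stroma, and read 7.41 and 7.29 in mock-treated and 8.06 and 8.04 in IL-13-treated shSCR cells, and 6.93 and 6.87 in mock-treated and 7.34 and 7.38 in IL-13-treated knockdown cells. It rose by 0.58 with IL-13 (adjusted p = 0.0318) and fell by 0.57 with the hairpin (adjusted p = 0.0238). Of 15 focal adhesion adaptors, TNS4, an epithelial tensin that binds integrin β tails, rose with IL-13 by 0.90 (adjusted p = 0.0108), from 7.56 and 7.25 to 8.28 and 8.31 in shSCR cells and from 6.87 and 6.82 to 7.78 and 7.72 in knockdown cells. Its difference with the hairpin was -0.55 (adjusted p = 0.0577). Of 15 adherens and tight junction genes none passed in these comparisons, and of 7 plakin, keratin and stratified epithelium genes TP63 alone did. At an unadjusted p under 0.05 there were 2 adherens and tight junction genes for the knockdown and 0 for IL-13. For the knockdown 2 of 14 matrix features and 3 of 16 adaptor features were lower at that level. For IL-13 1 feature of each of these 2 lists was higher. The shares of all features were again 11.3% and 8.73%. With each array left out in turn, TNC and the KRT18 feature passed in 0 of 8 fits. TP63 passed in 1 of 8 for the knockdown and in 1 of 8 for IL-13, in both cases the fit that dropped array B of the knockdown cells given IL-13, and TNS4 passed in 2 of 8, the fits that dropped one or the other mock-treated shSCR array (adjusted p 0.0198 to 0.0739 over the 8).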

How the data were processed

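The deposited table holds log2 expression, 1 value for each gene-level feature on each array, which the authors computed from GeneChip arrays (named as Human Exon 1.0 ST in the study's methods) by RMA (Affymetrix Expression Console version 1, per the labels a core-exon analysis). RMA subtracts background, equalizes the distributions of all arrays by quantile normalization and condenses the probes of a gene into 1 value, which can compress small changes, and isoforms are not separated. The build behind the features is not given in the sources used here.

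Of 33297 features, 4156 were controls or spike-ins and were dropped, and 29141 were tested without a filter or further normalization. Columns were assigned to groups by their headings, and all were used. Group means of all 8 arrays were fitted with limma 3.58.1 in R 4.3.3 (4 residual and 3.86 prior degrees of freedom), with 8 contrasts and Benjamini-Hochberg adjustment over all 29141 features. A gene was called at an adjusted p under 0.05, with the methods' fold change above 2 as a stricter rule. Precision is limited by the number of arrays. The procedure was tested on simulated data.

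The 33 genes and the other lists, written from general knowledge, were chosen with earlier results of these data known. Named in the text were genes called in any contrast, DST, in each role the 2 genes with the smallest p for the knockdown and the 2 for IL-13, genes with opposite IL-13 differences in the lines, IL13RA2 and TP63, and called genes of the other lists, except 1 result that is not reported here; ITGA6, ITGA2, ITGB8, ITGB6, LAMB3 and DSG1 were added after their values were seen, and the rest are given in counts, ranges and comparisons with these. The basal markers KRT14, KRT17 and CDH3 were added beside TP63 and KRT5 after their values were seen. ITGA1 was matched to no feature, and 3 genes (NECTIN1, NECTIN4, AFDN) were matched by older symbols. Alternatives were the fold change, no adjustment, the methods' one-way analysis of variance, and fitting the compared groups alone. Others were leaving out the dimmest 30% of features, 2 further normalizations, an intensity trend with a robust prior, and leaving out each array. The methods do not name the groups entered in the analysis of variance, so it was run over the arrays compared. Over both treatments or both lines it left the other factor in its error.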

Additional observations from a re-analysis of the deposited data

Results flagged for a closer look

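In 3 desmosome genes the groups had arrays that lay apart in opposite directions in the 2 settings of one comparison. DSG1, a desmoglein of upper epidermal layers, was higher in knockdown than in shSCR cells without IL-13 (2.80 and 2.79 against 2.73 and 2.48) and lower with IL-13 (2.64 and 2.88 against 3.42 and 2.94). The interaction was -0.61 on the log2 scale (limma, unadjusted p = 0.0417, adjusted p = 0.989), and DSG1 was among the dimmest 30% of features.

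DSG3, a desmoglein of basal layers and the main pemphigus vulgaris antigen, read 10.996 and 11.04 in mock-treated and 11.21 and 11.20 in IL-13-treated shSCR cells, and 11.13 and 11.17 in mock-treated and 11.03 and 10.95 in IL-13-treated knockdown cells. It was thus higher with IL-13 in shSCR cells and lower in knockdown cells, and likewise the knockdown difference turned from above to below 0. The interaction was -0.34 (unadjusted p = 0.0420, adjusted p = 0.989).

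DSP, desmoplakin, read 10.01 and 10.00, then 10.03 and 10.09 in shSCR cells without and with IL-13, and 10.17 and 10.19, then 10.10 and 10.02 in knockdown cells. Its IL-13 differences of 0.05 and -0.12 had opposite signs, with an interaction of -0.17 (unadjusted p = 0.253, adjusted p = 0.989). Opposite differences of this kind were found for 2 of the 33 genes (6.06%) and 4.7% of all features under IL-13, and for 2 (6.06%) and 4.41% under the knockdown, and no interaction passed the adjusted test.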

How the results depend on the processing

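No paired analysis was possible because the column headings carry no replicate numbers. Of the 33 genes, 1 (DST) was called for the knockdown over both treatments and 1 (DST) for IL-13-treated knockdown against mock-treated shSCR cells, and 0 elsewhere. With each array left out in turn the counts were 0 to 0 in both. They were also 0 in both with the arrays shifted to one median, in the methods' one-way analysis of variance, and with a fold change above 2 in addition, and 0 in the latter comparison with its groups fitted alone. Leaving out the dimmest 30% of features gave 3 for the knockdown over both treatments (DST, ITGA3 and ITGA5). An intensity trend with a robust prior gave 8 there (DST, LAMA3, ITGA2, ITGA3, ITGA5, ITGB8, DSC2 and DSC3), 3 in the combined comparison (DST, ITGA2 and ITGA5), 2 for IL-13 over both lines (DST and DSC2), 2 for the knockdown without IL-13 (DST and ITGA3) and 1 with it (DST). The cause was not tested. For the knockdown over both treatments, 11.3% of all features were at an unadjusted limma p under 0.05 in the main fit. The share was 14.7% without the dimmest 30% of features and 13.3% with the trend and robust prior. Shares of all features called after adjustment under these alternatives are not given here. The larger counts are therefore not read as particular to these genes. Without adjustment limma gave 3 for IL-13 in shSCR cells, 10 for the knockdown without and 7 with IL-13, 2 for IL-13 in knockdown cells, 8 for the combined comparison, 2 for the interaction, 3 for IL-13 over both lines and 11 for the knockdown over both treatments. The unadjusted one-way analysis of variance, added after seeing the data, gave 6, 12, 6, 3, 8, 3 and 8 in the same order, the interaction aside. For these counts the shares of all features under the same test are not given here. They are therefore not read as more or fewer than among all features. The small knockdown differences of ITGB4, PLEC, COL7A1, LAMA5, LAMB2, ITGAV, ITGB1, DSG1 and PERP (-0.11 to 0.03) changed sign under at least 1 alternative, as did those of PLEC, LAMA3, LAMC1, ITGB6 and DSG3 for IL-13 over both lines (-0.04 to 0.03), none of them at an unadjusted p under 0.05, and no others did in these 2 comparisons. With each array left out in turn, the knockdown difference over both treatments was 0.44 to 0.48 in DST, -0.52 to -0.45 in ITGA3 and -0.54 to -0.40 in ITGA5. The 2 arrays a group limit what can be detected.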
